A study of Sus scrofa with 42 samples.

Results

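The GTSF1-like gene (ENSSSCG00000000296) and the piRNA pathway were followed through the first cleavages of the pig embryo. The GTSF1-like gene was chosen by its own level, as the nuclear gene with the highest average FPKM at the 1- and 2-cell stages, and the other members by name: PIWIL1, PIWIL2, PIWIL4, TDRKH, TDRD6, TDRD9, MAEL, HENMT1 and ASZ1. Of these 10 genes, 9 had a row among the 15351 genes of the table, and TDRD9 was not analysed here. The filter on low values was passed by 7 of the 9, all but PIWIL4 and ASZ1. The embryos were porcine and came from in vitro fertilization (IVF) or, with no sperm, from parthenogenetic activation (PA) of oocytes, and their cells were sequenced singly. Zygotes were collected at 19 h, and blastomeres, the cells of the cleaving embryo, at 27 h (2-cell), 48 h (4-cell) and 72 h (8-cell). Each method gave 3 cells of 3 1-cell embryos, 6 cells of 3 2-cell embryos, 9 cells of 3 4-cell embryos and 3 cells of 1 8-cell embryo, in all 42 cells of 20 embryos. All oocytes came from slaughterhouse ovaries and were matured and cultured in vitro, so both methods share that handling. PA oocytes were activated by electric pulses and then incubated with 6-dimethylaminopurine and cytochalasin B, steps not described for IVF. Hours count from the end of incubation with sperm in IVF and from the pulses in PA. A PA embryo carries maternal chromosomes only, which cannot be told apart here from these differences in treatment and timing.

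PIWI-interacting RNAs (piRNAs) are small RNAs that guide PIWI proteins to transposon transcripts and keep them silent in the germline. Long precursors are cut at the mitochondrial surface and within germ granules, Tudor-domain proteins hold the PIWI proteins there, and the 3′ end of the finished piRNA is methylated. Proteins of the GTSF1 family carry paired CHHC zinc fingers, bind PIWI proteins and help them to cleave targets. In many mammals the oocyte as well as the testis makes piRNAs.

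The GTSF1-like gene lies on the minus strand of chromosome 5, at chr5:19669821-19673217 in Sscrofa11.1. Its 3′ end is 8344 bases from the 5′ end of GTSF1 (ENSSSCG00000026333, chr5:19639206-19661476), which lies on the same strand. RefSeq names the GTSF1-like locus gametocyte-specific factor 1-like. It gives that locus 6 coding exons and 154 residues, against 7 coding exons and 167 residues for GTSF1. The 5′ end of the deposited gene model is the first base of the RefSeq coding region. The part of each spliced coding sequence that holds both CHHC fingers is shown because it is what marks the gene as a GTSF1 relative and shows how far its bases differ from those of GTSF1. It is read 5′ to 3′ from codons 9 to 63 of the GTSF1-like gene, which lie in coding exons 1 and 2 (chr5:19672370-19673193), and from codons 17 to 71 of GTSF1, in coding exons 2 and 3 (chr5:19648486-19650092). Capitals mark the codons of the 4 cysteines and 4 histidines of the 2 fingers.
GTSF1-like: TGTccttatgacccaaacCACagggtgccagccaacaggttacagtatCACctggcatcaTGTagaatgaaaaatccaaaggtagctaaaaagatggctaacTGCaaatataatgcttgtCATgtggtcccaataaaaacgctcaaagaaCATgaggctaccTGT
GTSF1: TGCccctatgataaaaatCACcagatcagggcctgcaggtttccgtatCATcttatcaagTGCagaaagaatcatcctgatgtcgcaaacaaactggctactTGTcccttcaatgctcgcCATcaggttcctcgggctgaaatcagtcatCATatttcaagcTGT
Over the 165 bases of each, 102 of 159 aligned bases were identical (64.2%), and over the coding sequences 270 of 428 (63.1%). The longest run of bases shared by both coding sequences was 9. Outside its own locus the coding sequence aligned to 1 place in the genome, 199 bases at 75.9% identity in GTSF1L on chromosome 17.

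The depth over the genes of the table was read from the table itself, since low FPKM values are whole multiples of what 1 fragment is worth. It is a minimum, and the paper reports far more mapped reads per library. At least 3690578 to 12932838 fragments per cell were recovered in this way, and 1124 to 5787 genes per cell had an FPKM of at least 1. A pair of PA 4-cell libraries stood apart, each nearly identical to a PA 2-cell library. Blastomere 4 of embryo 1 correlated with blastomere 2 of PA 2-cell embryo 1 at r = 0.9985, and blastomere 1 of embryo 2 with blastomere 1 of PA 2-cell embryo 2 at r = 0.9988, while the highest of the other 859 pairs of cells reached 0.9079. Which stage label is right in these pairs is not known. All of these libraries were kept, and below the PA 4-cell ones are called the near-identical libraries. The values of PA 4-cell embryos that the comparisons turn on are also given without them. Values of PA 2-cell embryos 1 and 2 include the PA 2-cell libraries of these pairs and are not given without those. Correlations over the 20 embryos include all of them. Of the fixed oocyte markers, 11 of 12 were in the table, and their summed FPKM ran from 919.5 to 1704 in cells of 1- and 2-cell embryos and from 7.173 to 260.5 in 8-cell blastomeres. The 2 sperm markers in the table (of 10), ACRV1 and AKAP4, were at a summed FPKM of 0 in every cell of IVF 1-, 2- and 8-cell embryos. Their sum reached 1.825 in IVF 4-cell blastomeres, 9.021 in PA 4-cell blastomeres and 14.09 in 1 PA 1-cell embryo. The 4 cumulus cell markers in the table (of 10) summed to 0 to 29.95 FPKM. Of these, STAR had at least 1 FPKM in 20 of the 42 cells and CYP19A1 in 3, while INHBA and TNFAIP6 were under 1 FPKM in every cell.

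The GTSF1-like gene was the most abundant nuclear gene of 1- and 2-cell embryos and was nearly gone at the 8-cell stage. In the 3 IVF 1-cell embryos its level was 5958, 3033 and 2818 FPKM, and in the 3 PA 1-cell embryos 4008, 4385 and 7056 FPKM. The embryo means at the 2-cell stage were 5883, 5037 and 4522 FPKM for IVF and 6087, 3617 and 7414 FPKM for PA. The ranges of the 1- and 2-cell embryos overlapped within both methods. It ranked first among nuclear genes in every cell of PA 1- and 2-cell embryos and of IVF 1-cell embryos, and first or second in those of IVF 2-cell embryos. The next gene by mean, PCNA, the sliding clamp of DNA replication, stood at 1626 FPKM in IVF 1-cell and 1865 FPKM in PA 1-cell embryos.

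At the 4-cell stage the embryo means of the GTSF1-like gene were 1167, 602.9 and 595.1 FPKM for IVF and 4279, 2527 and 669.5 FPKM for PA. All 3 IVF embryos were below every IVF 2-cell embryo, and 1 PA 4-cell embryo was above the lowest PA 2-cell embryo. This overlap rested on a near-identical library: without both of them the PA 4-cell embryos held 1936, 2233 and 669.5 FPKM, all below every PA 2-cell embryo. At the 8-cell stage its level was 10.78 FPKM in the IVF embryo, with blastomeres at 14.92, 10.91 and 6.524, and 18.77 FPKM in the PA embryo, with blastomeres at 11.25, 40.32 and 4.741. The group mean went from 5147 ± 687 FPKM (SD, n = 3 embryos) at the IVF 2-cell stage to 788.4 ± 328 at the 4-cell stage, 6.53 times lower, and the single IVF 8-cell embryo was 73.1 times lower again. The PA mean went from 5706 ± 1927 to 2492 ± 1805 FPKM (SD, n = 3 each), 2.29 times lower, and the PA 8-cell embryo was 133 times below the 4-cell mean. Without the near-identical libraries the PA 4-cell mean was 1613 ± 830.4 FPKM, and these steps were 3.54 and 85.9 times. Because the gene was chosen by its early level, these steps are a description without a test. FPKM is a share of each library, so a lower value cannot be told apart from more RNA of other genes. Mitochondrial genes took 3.89 to 14.5% of the FPKM in IVF 1-cell and 23.9 to 46.8% in IVF 8-cell cells, and 10.2 to 11.3% and 37.7 to 46.5% in PA ones, and scaled to the nuclear total the 1- to 8-cell ratio was 469 in IVF and 358 in PA embryos, against 365 and 274 as deposited. Where cells were instead scaled by the median ratio over the 1064 nuclear genes present in all of them, the PA mean was higher at the 4-cell (6522) than at the 2-cell stage (2602), the IVF mean was still lower at the 4-cell (559.8) than at the 2-cell stage (1701), and both 8-cell values were below the 1-cell means, 35.3 times in IVF and 13.9 times in PA.

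**Figure D1:**
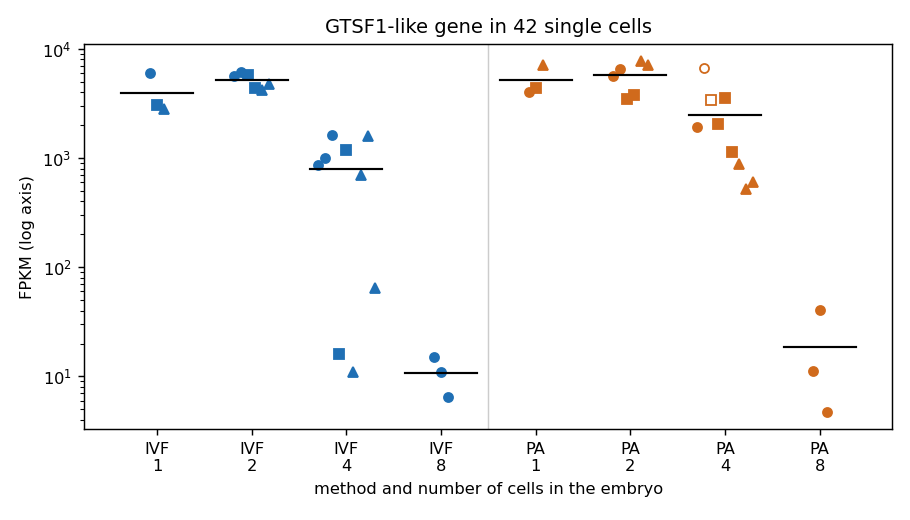
FPKM of the GTSF1-like gene (log axis) in each of the 42 cells, by method and number of cells in the embryo. Circles, squares and triangles are embryos 1, 2 and 3 of a group, open symbols the 2 near-identical PA 4-cell libraries, and black lines the mean of the embryo means. Cells of 1- and 2-cell embryos sit between 2818 and 7663 FPKM and those of 8-cell embryos between 4.741 and 40.32.

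Sister cells of 2-cell embryos held nearly equal amounts of the GTSF1-like RNA, and those of IVF 4-cell embryos 2 and 3 very unequal ones. The 6 sister pairs of 2-cell embryos differed in the GTSF1-like gene by 0.10 to 0.40 on the log2(FPKM + 1) scale (median 0.149). The median was 0.622 over all genes tested and 0.419 over the 155 of them with a mean FPKM of at least 100 over all cells. The gene was chosen by its level at this stage, and the 155 genes are not matched to that level, so this is a description without a test. In PA embryos 1 and 2, 1 cell of each pair is a library nearly identical to a PA 4-cell one. At the 4-cell stage IVF embryo 3 held 11.02, 703.3, 1602 and 64.15 FPKM in its 4 cells, a range of 145 times. IVF embryo 2 held 16.09 and 1190 FPKM in its 2 cells, and IVF embryo 1 held 868.5, 1010 and 1623 in its 3 cells. In PA embryos the highest 4-cell blastomere exceeded the lowest of the same embryo by 3.42, 3.10 and 1.72 times. The first of these rested on a near-identical library, without which embryo 1 has 1 cell and no range, and the second stayed at 3.10 without the other. Levels of 64.15 FPKM or less were found in 3 of 9 IVF blastomeres, from 2 embryos, while the lowest of the 9 PA blastomeres had 518.7 FPKM. Whether the methods differ in this was not tested.

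The 3 IVF 4-cell blastomeres with the least GTSF1-like RNA were also those with the most RNA of activated embryonic genes. The summed FPKM of 5 fixed activation markers (NANOG, KLF4, KLF17, TFAP2C and DPPA2, transcription factors and a chromatin factor switched on from the embryo's own genome) was 943.6, 432.3 and 957.9 in these cells and 0.1814 to 281.3 in the other 6. Over the 9 IVF blastomeres Spearman's rho between GTSF1-like level and marker sum was -0.617, and over the 9 PA blastomeres -0.350, which became 0.179 without the 2 near-identical libraries. These are descriptions: cells of one embryo share their origin, and all genes of a library share its scale. HENMT1 moved the other way in IVF blastomeres, with rho = 0.783 against the marker sum, and had rho = 0.133 in PA blastomeres, or 0.036 without the near-identical libraries.

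**Figure D2:**
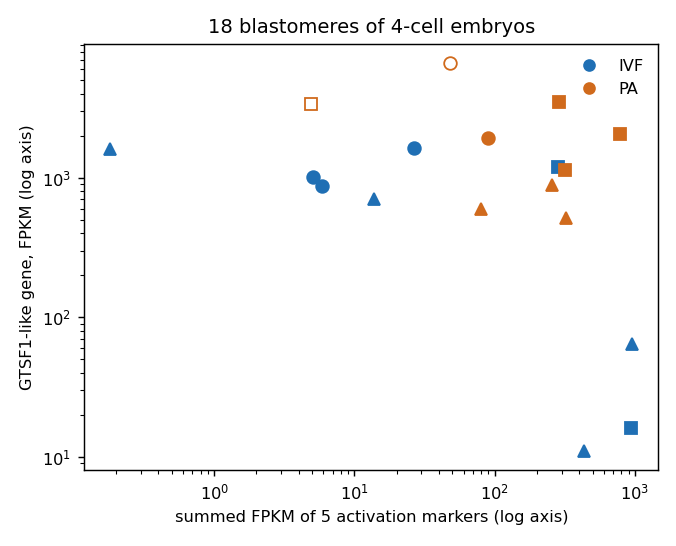
FPKM of the GTSF1-like gene against the summed FPKM of 5 activation markers (both log axes) in the 18 blastomeres of 4-cell embryos, IVF in blue and PA in orange, with symbols for embryos 1 (circle), 2 (square) and 3 (triangle) and open symbols for the near-identical libraries. The 3 IVF blastomeres at 11.02, 16.09 and 64.15 FPKM are those with the highest marker sums of their method.

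Between the methods, the GTSF1-like gene was not called at any stage tested. The log2 difference of IVF from PA was -0.43 ± 0.53 (SE; limma adjusted p = 1) at the 1-cell, -0.09 ± 0.53 (adjusted p = 1) at the 2-cell and -1.37 ± 0.53 (adjusted p = 0.24) at the 4-cell stage, with 3 embryos per group. At the 4-cell stage the PA embryos without the near-identical libraries gave -0.93 ± 0.49 (adjusted p = 0.317), and the median ratio scaling gave -3.60 (adjusted p = 0.000562). With 1 embryo each, the 8-cell levels of 10.78 and 18.77 FPKM were not tested.

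GTSF1, the neighbouring gene and the family member known to work with PIWI proteins, was far less abundant per kilobase. Its group means were 18.7, 17.59 and 11.47 FPKM in IVF 1-, 2- and 4-cell embryos, with 13.45, 8.256 and 3.211 in PA ones, the last being 0.5729 without the near-identical libraries. The ratio of the GTSF1-like gene to GTSF1 per embryo was 104 to 695 at the 1-cell and 231 to 1147 at the 2-cell stage. At the 4-cell stage it was 32.8 to 177 in IVF and 413 to 2105 in PA embryos. Without the near-identical libraries the PA range was 413 to 50802.5, with GTSF1 at only 0.05285, 0.04396 and 1.622 FPKM in the 3 embryos. The 8-cell embryos lay far apart, at 1.93 in IVF and 2082 in PA, and both ratios rest on few cells. In the IVF embryo 1 blastomere held 16.66 FPKM of GTSF1 and the other two 0.04923 and 0.05603, and the PA embryo held 0.009018 FPKM.

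Over the 20 embryos, the genes whose log2 levels were most like those of the GTSF1-like gene among the 8116 tested were PRICKLE1 (r = 0.980), MTSS1 (0.960), MB21D2 (0.957), RNF34 (0.952) and ENSSSCG00000033424 (0.950). PRICKLE1, a planar cell polarity protein, had 140.1 and 206.1 FPKM in IVF and PA 1-cell embryos and 0.2363 and 2.334 at the 8-cell stage. Of the members, PIWIL1 was the most like it (r = 0.813), then MAEL (0.678), TDRD6 (0.499) and TDRKH (0.433), while HENMT1 ran opposite to it (r = -0.688). The embryos share their stage, so these values describe the stage profile and carry no test.

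Among PIWIL1, PIWIL2 and PIWIL4, PIWIL1, which loads piRNAs and cleaves their targets, was the most abundant at the 1-cell stage. Its level was 25.81, 25.27 and 17.05 FPKM in the IVF 1-cell embryos and 2.549, 14.93 and 18.41 in the PA ones, with means of 17.89 in IVF and 20.84 in PA 2-cell embryos. At the 8-cell stage it was 0.04941 FPKM in the IVF embryo and 0.02461 in the PA embryo, from 0 to 4 recovered fragments per cell. From the 1- to the 8-cell stage it fell by 4.47 ± 1.41 on the log2(FPKM + 1) scale in IVF embryos (limma adjusted p = 0.0402) and differed by -3.33 ± 1.41 in PA embryos (adjusted p = 0.132). The IVF call was lost, at adjusted p = 0.0653 to 0.0847, whichever of the 3 IVF 1-cell embryos was left out.

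At the 4-cell stage PIWIL1 was present in some blastomeres and almost absent from their sisters. The 3 cells of IVF embryo 1 held 0.02657, 32.69 and 0.1582 FPKM, and those of embryo 2 held 8.625 and 0.01666. Of the 9 PA blastomeres, 7 had 0.03561 to 1.211 FPKM, and the other two, at 44.29 and 24.95, were the near-identical libraries. The log2 difference of PA 4-cell from 2-cell embryos was -1.78 ± 1.00 (adjusted p = 0.565) with them and -3.84 ± 0.84 (adjusted p = 0.00791) without them. PA 2-cell sisters also differed in PIWIL1, with 25.77 and 0.02024 FPKM in embryo 2 and 25.69 and 0.4458 in embryo 3. The cell with 25.77 is the library nearly identical to a PA 4-cell one.

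The other PIWI members were scarce. PIWIL2, a PIWI protein of the amplification cycle, had 1.116 FPKM or less in all but 2 cells, an IVF 4-cell blastomere with 18.41 (1254 recovered fragments) and a PA 4-cell blastomere with 36.94 (1979 fragments), both of embryo 3 and with PIWIL2 at 0 in their sisters. PIWIL4, which directs silencing in the nucleus, was at 0 in 41 cells and had 1 fragment in the other one. PIWIL3, a PIWI protein of oocytes that mice lack, was read from the wider list and had 16.99 ± 1.72 FPKM (SD, n = 3) in IVF and 7.389 ± 0.446 in PA 1-cell embryos, and 0.02257 and 1.338 at the 8-cell stage.

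MAEL was high in 1-cell embryos and near 0 in the 8-cell embryos of both methods. MAEL, a factor of piRNA precursor processing and transposon silencing, had 44.08, 81.11 and 39.78 FPKM in the IVF 1-cell embryos, and the PA 1-cell embryos held 80.06, 43.23 and 44.04. The 3 IVF 2-cell embryos held 33.48, 25.15 and 43.77 FPKM and the 3 IVF 4-cell embryos 0.1352, 0.07537 and 0.487, without overlap. This step amounted to -4.81 ± 1.18 on the log2 scale and missed the threshold (limma adjusted p = 0.0531). It passed in 4 of 10 alternative settings, among them the fit without the near-identical PA libraries (adjusted p = 0.0245). It also passed in 1 of 6 fits that left out an embryo, the one without IVF 4-cell embryo 1 (adjusted p = 0.0384). From the 1- to the 8-cell stage MAEL fell in both methods, with log2 differences of -5.68 ± 1.67 in IVF (adjusted p = 0.0282) and -5.74 ± 1.67 in PA embryos (adjusted p = 0.0278). Leaving out IVF 1-cell embryo 2 or 3 raised the IVF value to 0.0708 or 0.0514, and leaving out PA 1-cell embryo 1 or 3 raised the PA value to 0.0662 or 0.0502.

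MAEL levels were uneven among PA embryos. The PA 2-cell embryos held 62.45, 0.06573 and 19.84 FPKM, embryo 2 being near the 8-cell values of 0.03989 in IVF and 0.02257 in PA. At the 4-cell stage 8 of the 9 PA blastomeres had 0.2381 FPKM or less, and the near-identical blastomere 4 of embryo 1 had 37.0. The log2 difference of PA 4-cell from 2-cell embryos was -1.99 ± 1.18 (adjusted p = 0.588) with both such libraries and -3.32 ± 1.01 (adjusted p = 0.0514) without them.

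TDRD6, a Tudor protein of germ granules, had 9.952, 14.02 and 19.88 FPKM in the IVF 1-cell embryos and 23.2, 6.624 and 1.582 in the PA ones, and 0.03481 and 0.008772 at the 8-cell stage. Its differences between these stages, -3.87 ± 1.59 (limma adjusted p = 0.11) and -2.95 ± 1.59 (adjusted p = 0.25), did not pass. Its highest value of all cells, 84.22 FPKM, was in blastomere 4 of PA 4-cell embryo 3, the cell that also held the most PIWIL2. TDRKH, which tethers PIWI proteins to mitochondria, had 2.551, 4.496 and 2.11 FPKM in IVF and 3.414, 0.5813 and 3.512 in PA 1-cell embryos. It was under 0.1 FPKM in every 4-cell embryo mean, and its changes from the 1- to the 8-cell stage did not pass the test either. ASZ1, a protein of the mitochondrial site of piRNA processing, was found in the 3 IVF 1-cell embryos at 3.645, 0.6134 and 3.882 FPKM (128, 26 and 153 fragments), as 1 fragment in 1 IVF 8-cell blastomere, and at 0 in the other 38 cells, PA 1-cell embryos included. It did not pass the filter on low values and has no test.

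HENMT1, the methyltransferase that protects the 3′ end of piRNAs, was the member that stayed abundant at every stage, and it rose in PA embryos. Its level was 99.59, 66.72 and 89.36 FPKM in IVF 1-cell and 102.5, 89.52 and 126.6 in IVF 2-cell embryos. The IVF 4-cell embryos held 205.9, 359.7 and 259.4 FPKM, all above the earlier embryos, and the IVF 8-cell embryo 222.1. In PA embryos it was 29.22, 46.25 and 36.43 FPKM at the 1-cell, 77.11, 59.67 and 50.44 at the 2-cell and 105.6, 111.3 and 108.7 at the 4-cell stage, without overlap between stages, and 280.7 in the 8-cell embryo. Without the near-identical libraries the PA 4-cell embryos held 98.8, 125.5 and 108.7 FPKM. The 1- to 8-cell rise in PA embryos was 2.90 ± 0.60 on the log2 scale (limma adjusted p = 0.00333), and it was called in all 9 alternative settings and with any PA 1-cell embryo left out. The IVF difference was 1.39 ± 0.60 (adjusted p = 0.13), and the IVF 4-cell embryos differed from 2-cell embryos by 1.34 ± 0.43 (adjusted p = 0.111), or by 1.53 (adjusted p = 0.0347) without IVF 4-cell embryo 1.

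In FPKM, HENMT1 was higher in each IVF embryo than in each PA embryo at the 1-, 2- and 4-cell stages, did not pass the test at any of them, and at the 4-cell stage had the opposite sign (-0.587 log2) under the median ratio scaling. The log2 differences of IVF from PA were 1.18 ± 0.43 (limma adjusted p = 0.887), 0.765 ± 0.43 (adjusted p = 0.925) and 1.30 ± 0.43 (adjusted p = 0.158), the last being 1.27 (adjusted p = 0.142) without the near-identical libraries. In the 8-cell embryos the order was opposite too, 222.1 FPKM in IVF and 280.7 in PA, with PA blastomeres at 483, 249.2 and 110.0. The genes most like HENMT1 over the 20 embryos were FAM104A (r = 0.914), COG1 (0.908), ENSSSCG00000011772 (0.868), ND3 (0.839), which is a mitochondrial gene, and ENSSSCG00000033084 (0.828).

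**Figure D3:**
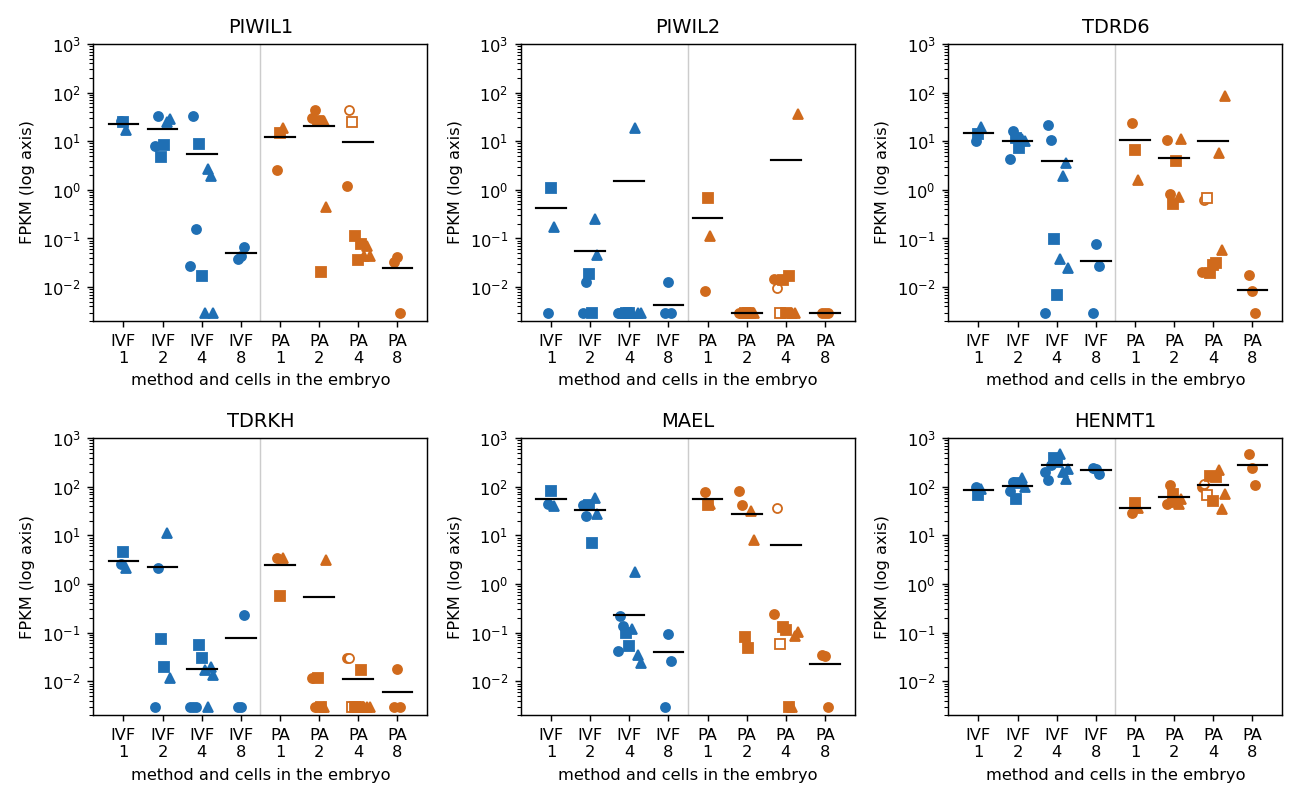
FPKM (log axis) of 6 members in each of the 42 cells, by method and number of cells in the embryo, with embryos 1, 2 and 3 as circles, squares and triangles, open symbols the near-identical PA 4-cell libraries, black lines the mean of the embryo means, and cells at 0 are drawn at the lower edge of the points. PIWIL1, TDRD6 and MAEL differ by orders of magnitude between single 4-cell blastomeres while HENMT1 stays between 29.22 and 483 FPKM in every cell.

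A wider list of piRNA pathway genes was read in the same fit. It holds the members other than the GTSF1-like gene and 26 further genes, of which 28 in all were in the table and 24 passed the filter, which asked for 3 or more cells with an FPKM of 1 or higher. A call needed a 2-fold change or more together with an adjusted p below 0.05. From the 1- to the 8-cell stage, 7 of the 24 were called in IVF embryos (1 up, 6 down), where 14.3% of all genes tested were called, and 5 of the 24 in PA embryos (1 up, 4 down), where 13.8% were. The median log2 difference of the list was -2.39 in IVF and -1.76 in PA embryos, against -0.765 and -0.58 over all 8116 genes. The filter counted cells of any stage, so a gene could pass it through 1- and 2-cell embryos alone, as TDRKH did. Such a gene had little room to do other than fall, so the medians are a description without a test. The median ratio scaling moved the median of all genes by -0.304 to 0.708 log2 over the comparisons. Under it the split of calls became 4 up and 0 down in IVF and 2 up and 1 down in PA embryos. Calls over all 8116 genes were then 1518 up and 116 down in IVF and 1727 up and 112 down in PA embryos. The list medians became -1.16 and -0.875, against -0.0574 and -0.0987 over all genes. Leaving out 1 of the 3 1-cell embryos left 1 to 4 called genes in IVF (4 without embryo 1, 1 without embryo 2 or 3) and 3 to 5 in PA embryos (3 without embryo 1 or 3). The share over all genes in these left-out fits is not given here, so their counts have no background. Both 8-cell groups are 1 embryo, whose spread is assumed to be that of the other groups.

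Of the wider list, the genes that fell in IVF embryos were TDRD1, a Tudor scaffold of germ granules (-4.30 ± 1.36 log2, limma adjusted p = 0.0402), FKBP6, a co-chaperone of piRNA loading (-4.41 ± 1.31, adjusted p = 0.0299), RNF17, a Tudor protein (-4.08 ± 1.17, adjusted p = 0.0249), and MYBL1, a transcription factor of piRNA precursor genes in the testis (-4.74 ± 1.10, adjusted p = 0.00714), beside PIWIL1 and MAEL. In PA embryos FKBP6 (-4.73 ± 1.31, adjusted p = 0.0215), MYBL1 (-3.83 ± 1.10, adjusted p = 0.0269) and GTSF1 (-3.82 ± 1.02, adjusted p = 0.0183) fell beside MAEL. Leaving out single IVF 1-cell embryos raised the IVF values of TDRD1 to 0.0691 to 0.0831 (any embryo), of FKBP6 to 0.06 and 0.0687 and of RNF17 to 0.0728 and 0.0603 (embryo 2 or 3), and leaving out PA 1-cell embryo 1 or 3 raised that of MYBL1 to 0.0586 or 0.0554. FKBP6, for example, had 17.94, 20.16 and 25.83 FPKM in IVF 1-cell and 50.14, 34.46 and 52.14 in PA 1-cell embryos, and 0.04208 and 0.7232 at the 8-cell stage. Of the other genes with a group mean of at least 10 FPKM, TDRD5 and TDRD12, Tudor proteins of piRNA processing, PNLDC1, which trims piRNA 3′ ends, and PIWIL3 had 8-cell levels of 0.008206 to 1.338 FPKM and did not pass. BTBD18, a regulator of piRNA precursor genes, had 0.0141 and 0.009238 at the 8-cell stage. Its high group mean rested on IVF 4-cell embryo 3, with 62.52 FPKM. The 1-cell embryos held 0.4497, 0.6209 and 8.203 FPKM of BTBD18 in IVF and 0.013, 9.799 and 0.01716 in PA. DDX4, the germ cell helicase, and WDR77, a partner of the arginine methyltransferase PRMT5, stood at 10.48 and 29.84 FPKM in the IVF 8-cell and at 0 and 0.003751 in the PA 8-cell embryo, a difference between single embryos that was not tested.

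STK31, a Tudor protein with a kinase domain, was the 1 gene of the list called as higher in the IVF 8-cell embryo. Its embryo means were 2.0, 3.439 and 0.7948 FPKM at the IVF 4-cell stage and 86.43 at the 8-cell stage, a log2 difference of 4.92 ± 1.28 (limma adjusted p = 0.0217) from the 4-cell and 4.09 ± 1.28 (adjusted p = 0.0392) from the 1-cell stage, the latter at 0.0569 to 0.0831 with any 1-cell embryo left out. The call against the 4-cell stage held in 5 of 9 alternative settings and was lost with a pseudocount of 0.1 (adjusted p = 0.188), nuclear total scaling (0.0515), the mean of log2 values (0.0907) and embryo number as a block (0.0515). The value rested on some blastomeres, 230.4, 28.88 and 0.01345 FPKM in the IVF embryo and 0.06334, 97.15 and 0 in the PA embryo. The PA difference from the 4-cell stage was 3.56 ± 1.28 (adjusted p = 0.0928), and 5.0 ± 1.17 (adjusted p = 0.00905) without the near-identical libraries, or 4.26 (adjusted p = 0.0462) without PA 4-cell embryo 1. STK31 overlaps another gene of the table, FAM221A, and the strand of the libraries is not given in the sources used here, so its reads are uncertain, as are those of PIWIL3, TDRD12 and WDR77, which also overlap other genes.

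**Figure D4:**
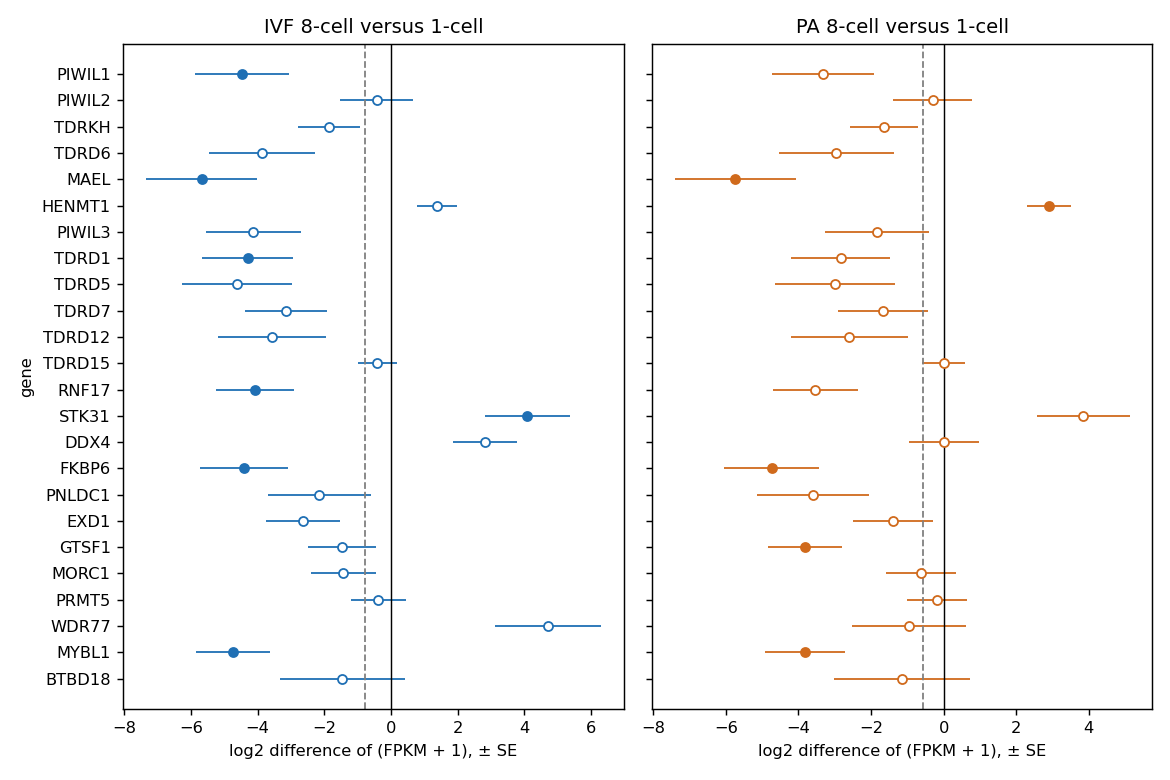
Log2 difference of (FPKM + 1) between 8-cell and 1-cell embryos for the 24 tested genes of the piRNA list without the GTSF1-like gene, IVF left and PA right; bars are ± SE from limma, filled points are called genes, and the dashed line is the median of all genes tested. Right of 0 lie 4 of the 24 points in the IVF panel and 2, HENMT1 and STK31, in the PA panel. Of all 8116 genes tested, 2404 in IVF and 2467 in PA embryos had differences above 0. The dashed lines are at -0.765 and -0.58. Genes that passed the filter through early cells alone have little room to lie right of 0.

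Single cleavage steps gave few calls. By limma, 0 of the 24 genes were called from the 1- to the 2-cell stage in IVF (0 at an unadjusted p under 0.05) and in PA embryos (1 at that p), where 0% and 0.0986% of all genes were called. That unadjusted p was reached by 216 and 394 of all 8116 genes. From the 2- to the 4-cell stage 0 were called in IVF (4 at unadjusted p under 0.05, and 2 called without IVF 4-cell embryo 1) beside 1.11% of all genes, and 0 in PA embryos (1 at that p) beside 0.394%. In these steps 1432 and 873 of all 8116 genes reached that unadjusted p. Without the near-identical libraries the PA step gave 3 called genes, PIWIL1, GTSF1 and FKBP6, all lower at the 4-cell stage, beside 7.41% of all genes, and the median of all genes in that step went from -0.166 to -0.449. GTSF1 was at -2.61 ± 0.73 (adjusted p = 0.0333) and FKBP6 at -3.92 ± 0.84 (adjusted p = 0.00702). From the 4- to the 8-cell stage 1 gene, STK31, was called in IVF embryos beside 6.97% of all genes, with 2 or 3 called when an IVF 4-cell embryo was left out, and 0 in PA embryos (4 at unadjusted p under 0.05) beside 9.99%, or 1, STK31, without the near-identical libraries beside 9.72%. With all libraries, 1680 of all 8116 genes reached that unadjusted p in the PA step. For the fits that left out an embryo the share over all genes is not given here, so their counts have no background.

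IVF and PA embryos were compared at the 1-, 2- and 4-cell stages with 3 embryos each. By limma, 0 of the 24 were called at the 1-cell (1 at an unadjusted p under 0.05), 0 at the 2-cell (1 at that p) and 0 at the 4-cell stage (4 at that p), where 0.0493%, 0% and 0.554% of all genes were called. That unadjusted p was reached by 332, 441 and 1134 of all 8116 genes. Of the 24 log2 differences of IVF from PA, 20 were above 0 at the 1-cell stage, 18 at the 2-cell and 14 at the 4-cell stage. Over all 8116 genes, 5220, 5223 and 5030 were above 0. The list medians were 0.75, 0.557 and 0.263 against 0.244, 0.251 and 0.233 over all genes. Without the near-identical libraries 18 of the 24 were above 0 at the 4-cell stage, beside 6035 of all 8116 genes, with a list median of 1.37 against 0.582 over all genes. In that fit 2 genes were called, GTSF1 (2.88 ± 0.73, limma adjusted p = 0.0318) and FKBP6 (3.71 ± 0.84, adjusted p = 0.0154), both higher in IVF, beside 4.07% of all genes. For the difference between methods in a cleavage step, the interaction called 0 of the 24 in each of the 3 steps (0 at an unadjusted p under 0.05), where 0%, 0% and 2.86% of all genes were called. At that unadjusted p were 227, 434 and 1175 of all 8116 genes. The last step, from the 4- to the 8-cell stage, has only 1 8-cell embryo per method, whose spread is assumed to be that of the other groups.

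The microRNA and siRNA pathway, read for comparison, had 8 of its 10 fixed genes in the table. By limma 0 of the 6 tested were called in any comparison, where 0 to 14.3% of all genes were called. At an unadjusted p under 0.05 were 3 of the 6 from the IVF 1- to 8-cell stage, beside 2400 of all 8116 genes. In the other comparisons 0 to 2 were, the 2 from the PA 2- to 4-cell stage, beside 873 of all genes. XPO5, the exporter of microRNA precursors, had 2.621 and 27.09 FPKM in IVF 1- and 8-cell embryos and 1.178 and 16.38 in PA ones, while DICER1, which cuts small RNA precursors, had 5.132 and 0.0115 in IVF and 2.271 and 0.06172 in PA embryos.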

How the data were processed

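Per the study's methods, the authors separated embryos into single cells, amplified cDNA from each, sequenced it, aligned the reads to Sscrofa11.1 using Hisat2 (StringTie assembled transcripts and HTSeq counted) and deposited FPKM, fragments scaled to gene length and library size; versions, annotation release and strand are not given in the sources used here. The extraction protocol in the labels describes another procedure.

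Blastomeres of an embryo are not replicates, so FPKM was averaged over the cells of each embryo. log2(FPKM + 1) was tested with limma 3.58.1 in R 4.3.3, with all 8 groups in 1 fit, a mean-variance trend and Benjamini-Hochberg adjustment over 8116 genes. Fold changes on this scale understate low genes. Count tests were not run, since FPKM are not counts. Recovered fragments are whole to within 0.05, for 99.5% of genes with a value, and amplified reads are not independent molecules. The labels do not say whether embryos came from separate collections, so p-values measure the spread between these embryos. The fit was tested on simulated data. Sequences were read with Biopython 1.88 and blastn 2.17.0+.

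The members and lists were chosen with earlier results of these data known. Genes named are the members, the list genes called or with a group mean of at least 10 FPKM, and the 5 genes most alike. Alternatives were other pseudocounts (0.1, 5), filters, scalings, embryo summaries, fits and left-out embryos. Embryo numbers are not linked across groups in the labels. In PA 2- and 4-cell embryos, same-numbered embryos deviated together (r = 0.355, 0.282 and 0.100), the first 2 of them the embryos with near-identical libraries.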

Additional observations from a re-analysis of the deposited data

Results flagged for a closer look

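In groups of 6 or 9 cells, a single cell stood apart from the others of its group by Dixon's criterion in 12 of 28 tests over the members. Chance alone gives about 1 in 20 for normally distributed values of independent samples. That rate does not apply to this count, since many of the values are at or near 0 and cells of an embryo are not independent. For the GTSF1-like gene it was the near-identical blastomere 4 of PA 4-cell embryo 1, with 6622 FPKM against 3517 in the next cell, and the same library stood apart in MAEL, with 37.0 against 0.2381 FPKM.

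In IVF 4-cell embryo 1, blastomere 2 held the most PIWIL1 (32.69 FPKM, next 8.625) and TDRD6 (21.1 FPKM, next 10.49) of its group. In PA 4-cell embryo 3, blastomere 4 held the most PIWIL2 (36.94 FPKM, next 0.01686) and TDRD6 (84.22 FPKM, next 5.843). In IVF 4-cell embryo 3, blastomere 2 held the most PIWIL2 (18.41 FPKM, next 0) and MAEL (1.768 FPKM, next 0.2254). In IVF 2-cell embryo 3, blastomere 1 held the most TDRKH (11.04 FPKM, next 2.178) and PIWIL2 (0.2556 FPKM, next 0.04593). Among PA 2-cell embryos, TDRKH stood apart in blastomere 2 of embryo 3 (3.154 FPKM, next 0.01166) and PIWIL4 in blastomere 2 of embryo 1 (0.006542 FPKM, next 0), which is 1 fragment.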

How the results depend on the processing

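Of the 13 single gene calls given above from all libraries, 1, HENMT1 from the PA 1- to 8-cell stage, was called in each alternative and with each embryo left out (adjusted p from 1.08e-06 to 0.013). The number of called genes of the 24 (28 tested without a filter, 18 at FPKM of at least 5) changed as follows, and the causes were not tested. Calls over all genes are given beside it, of 8116 genes unless stated. From the IVF 2- to 4-cell stage it was 0, and 1 without a filter, at FPKM of at least 5, under median ratio scaling, as the mean of log2 values, without the near-identical libraries and with the replicate block. Over all genes the calls were 90, and in that order 74 of 14692, 166 of 5927, 58, 532, 98 and 85. From the IVF 4- to 8-cell stage it was 1, and 2 with pseudocount 0.1, 3 under median ratio scaling, and 0 under nuclear total scaling, as the mean of log2 values and with the replicate block. All-gene calls there were 566, and in that order 574, 1156, 515, 391 and 545. From the PA 2- to 4-cell stage it was 0, and 1 under median ratio scaling and as the mean of log2 values and 3 without the near-identical libraries. All-gene calls there were 32, and in that order 503, 215 and 601. From the PA 4- to 8-cell stage it was 0, and 2 with pseudocount 0.1 and under median ratio scaling, and 1 with pseudocount 5, without a filter and without the near-identical libraries. All-gene calls there were 811, and in that order 753, 1532, 786, 882 of 14692 and 789. From the 1- to the 8-cell stage it was 7 in IVF, and 4 with pseudocount 5 and under median ratio scaling and 13 as the mean of log2 values, and 5 in PA, and 3 under median ratio scaling. All-gene calls were 1157 in IVF, and in that order 1013, 1634 and 1771, and in PA 1119 and 1839. Between methods it was 0, and 1 at the 1-cell stage without a filter and 2 at the 4-cell stage without the near-identical libraries. All-gene calls went from 4 to 13 of 14692 in the former case and from 45 to 330 in the latter. With 1 embryo left out the counts ranged from 0 to 2 (IVF 2- to 4-cell), 2 to 3 (IVF 4- to 8-cell), 0 to 1 (PA 4- to 8-cell), 1 to 4 (IVF 1- to 8-cell) and 3 to 5 (PA 1- to 8-cell). Calls over all genes in these left-out fits are not given here, so the ranges are not set against a background.

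Under median ratio scaling the GTSF1-like level was 1119, 1701 and 31.7 in IVF 1-, 2- and 8-cell and 1867, 2602, 6522 and 134.6 in PA 1-, 2-, 4- and 8-cell embryos. The same scaling reversed GTSF1 from the IVF 1- to 8-cell stage (1.88 log2) and HENMT1 between methods at the 4-cell stage (-0.587). The GTSF1-like difference between methods at the 2-cell stage ran from -0.393 to 0.125 with 1 embryo left out.

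Same-numbered embryos of different groups deviated together at r from -0.041 to 0.127, apart from PA 2- and 4-cell embryos, so the numbers were not taken as a pairing. The replicate block called 1 gene of the list from the IVF 2- to 4-cell stage and 0 from the IVF 4- to 8-cell stage, beside 85 and 545 of all 8116 genes.

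Groups held 3 embryos, or 1 at the 8-cell stage, which limits the precision, and a level of a few recovered fragments carries counting error beside amplification error.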
